A study of Mus musculus with 15 samples.

Results

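Mouse embryonic stem cells carrying a short hairpin labelled sh4 or a control hairpin labelled shCTR were profiled on 1-colour expression arrays, either untreated or after 72 h in 1 uM retinoic acid. The quantity described here is the interaction of hairpin and retinoic acid, that is, for each gene, the difference sh4 minus shCTR after retinoic acid minus the same difference in untreated cells. All 15 arrays of the series enter it: 4 shCTR untreated, 4 sh4 untreated, 4 shCTR after retinoic acid and 3 sh4 after retinoic acid. A positive interaction means that sh4 stood higher relative to shCTR after retinoic acid than before, and equally that the retinoic acid response was more positive in sh4 cells. Within 1 gene the same number can come from very different patterns over the 4 groups, and those patterns are set out below. The series title names Phf19, but the target of sh4 is not given in the labels, nor which stem cell line was used or how the hairpins were delivered. All groups carry a hairpin, and the hairpin effect rests on 1 hairpin. The labels give no culture time for the untreated cells, so retinoic acid cannot be told apart from whatever else differed over those 72 h.

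Phf19 is a Polycomb-like protein that associates with Polycomb repressive complex 2 (PRC2), the enzyme complex that methylates lysine 27 of histone H3 at silent developmental genes. Its Tudor domain reads methylated lysine 36 of the same histone, a mark of transcribed gene bodies. Retinoic acid binds nuclear receptors that activate Hox genes and genes of retinoid turnover, and it drives embryonic stem cells out of pluripotency into neural, endodermal and other fates according to the culture conditions.

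Levels are log2 processed intensities minus each array's 75th percentile, so 0 is the level of that percentile and levels of different genes are not compared with each other. A gene was called when its limma test over 25090 genes gave an adjusted p under 0.05. A group counted as measured where the probe was well above background on at least 3 of its arrays, and errors are standard errors of the fitted difference unless stated. The arrays lay on 4 slides, of which 3 held 1 array of each group, so the interaction could also be read within each of 3 slides. The scanner software rated 3 arrays for evaluation (sh4 retinoic acid replicate 1, sh4 untreated replicate 3 and shCTR untreated replicate 2). The array sh4 retinoic acid replicate 4 stood apart from the other 2 of its group for pluripotency genes, and those results are given with and without it. The titles number biological replicates without saying whether each was a culture of its own, and the p-values cover only the spread between these samples. Pou5f1, Sox2 and Nanog, the core stem cell factors, were well above background on all 8 untreated arrays.

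The interaction was called for 5109 genes, 20.4% of those tested. Of these, 2558 were positive (10.2%) and 2551 negative (10.2%). At a size of at least 2-fold there were 1478 genes (5.89%) and the balance was not even, with 493 positive genes (1.96%) and 985 negative genes (3.93%). The sign was the same in all 3 slides for 5088 of the 5109, and 5055 were also called with the slide as a block. Both counts use the arrays that called these genes, so they are descriptions and not independent support. With a normexp background correction 3044 genes were called, 675 of them at 2-fold or more, and in the authors' deposited values 677 reached 2-fold. Sizes of single genes moved most with these 2 settings. Of 214 named genes with a called interaction, 74 were smaller by more than 1.5 times or turned with the normexp correction, and 69 in the deposited values. With the normexp correction 34 kept the direction but lost the call, and 9 turned. In the deposited values these numbers were 13 and 9. Some of the genes that turned were not called either. Below, a gene's value under these settings is printed where the call was lost or the direction turned, and for the genes described array by array where the size moved by that much. The median over all genes tested was 0.01. The lists below are set against this median and against the 10.2% of genes called in each direction.

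The hairpin effect itself was called for 7149 genes in untreated cells (28.5%; 14.4% higher in sh4 and 14.1% lower) and for 5308 after retinoic acid (21.2%; 10.9% higher and 10.3% lower). With a normexp correction these counts were 4631 and 3383. Counts of list members with a hairpin effect, given below, are set against the shares of the main fit. Across all 25090 genes the 2 hairpin effects, which share no array but share slides, had a Pearson correlation of 0.32 and a Spearman correlation of 0.26. Among the 1638 genes called in untreated cells at 2-fold or more (6.53%), the median ratio of the effect after retinoic acid to the effect before was 0.31, and 1166 of them were called for the interaction. Those genes were chosen on the untreated value, so the ratio is a description.

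**Figure D1:**
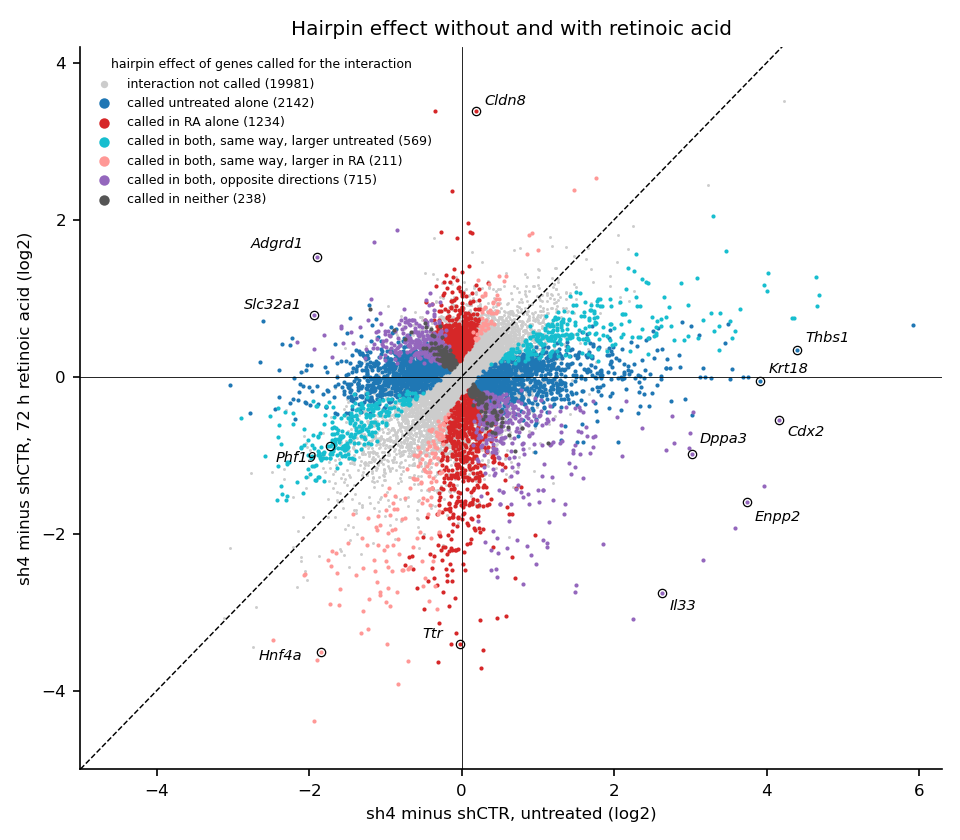
Each point is 1 of 25090 genes, with the hairpin effect (sh4 minus shCTR, log2) in untreated cells on the x axis and after 72 h of retinoic acid on the y axis; colours give the pattern of the 5109 genes called for the interaction, grey points were not called, and the dashed line marks equal effects. Most coloured points lie along the x axis (2142 genes called untreated alone) or the y axis (1234 genes called after retinoic acid alone), and the lower right quadrant holds genes such as Il33 and Enpp2 whose hairpin effect changed sign.

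Sorted by the hairpin effect, the largest class of called genes was that with an effect called in untreated cells alone, 2142 genes or 41.9%, of which 1150 were positive and 992 negative. A further 1234 genes (24.2%) had a hairpin effect called after retinoic acid alone. In 715 genes (14%) the effect was called in both states in opposite directions, and this class had the highest median size of the 6, 1.02; with the slide as a block it held 1125 genes, and with a normexp correction 340. In 569 genes the effect ran the same way in both states and was larger in untreated cells, and in 211 it ran the same way and was larger after retinoic acid, 160 of them negative. The remaining 238 had no called hairpin effect in either state. The response to retinoic acid was called for 62.3% of all genes tested in shCTR and 58.5% in sh4. Sorted by that response, 2018 genes (39.5%) responded the same way in both hairpins with the larger response in shCTR, and 1224 the same way with the larger response in sh4. Only 335 responded in opposite directions.

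For 4736 of the called genes all 4 groups were measured, and in 612 of these 1 group stood apart, its mean at least 1 log2 unit from the nearest other mean while the other 3 spanned less than that gap. Untreated shCTR was the group apart most often, lowest for 194 genes and highest for 108. Retinoic acid-treated shCTR was highest for 125 genes and lowest for 3. Untreated sh4 was lowest for 71 genes and highest for 65. Retinoic acid-treated sh4 was lowest for 35 and highest for 11. For the other 4124 genes no group stood apart by this rule.

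**Figure D2:**
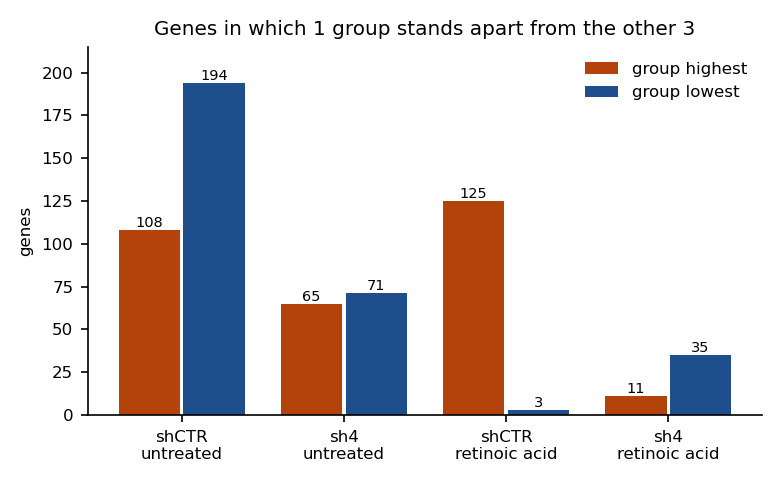
Bars count the genes (y axis) in which the group on the x axis stands at least 1 log2 unit from the nearest other group mean while the other 3 groups span less, out of 4736 called genes measured in all 4 groups; red bars are genes in which that group is highest and blue bars genes in which it is lowest. The tallest bar is untreated shCTR as the lowest group (194 genes), followed by shCTR after retinoic acid as the highest (125).

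Phf19 was itself among the called genes. Its 4 shCTR untreated arrays read -0.93, -0.98, -0.70 and -0.69, and the 4 sh4 untreated arrays read -2.61, -2.54, -2.51 and -2.54. After retinoic acid the shCTR arrays read -3.01, -3.06, -3.05 and -2.80 and the 3 sh4 arrays -3.90, -3.97 and -3.71. The groups did not overlap within either state, and shCTR cells after retinoic acid were already below sh4 cells before it. The hairpin effect was therefore -1.73 ± 0.09 in untreated cells and -0.88 ± 0.09 after retinoic acid, an interaction of 0.85 ± 0.13 (limma, adjusted p = 3.6e-04).

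Phf19 was the only 1 of 12 measured PRC2 subunits and cofactors with a called interaction (8.33%, where 20.4% of all genes tested were called). Under alternatives some other members were called. With averaged probes these were Ezh1 (-0.39) and Rbbp7 (-0.37). Aebp2 was called with the slide as a block (0.31), on the 3 complete slides (0.36) and without sh4 retinoic acid replicate 3 (0.39). Ezh2, the methyltransferase, had an interaction of 0.21 ± 0.08 (limma, adjusted p = 0.10). Suz12, a core scaffold subunit, stood lower in sh4 in both states (-0.56 ± 0.07 and -0.39 ± 0.08) with an interaction of 0.18 ± 0.11. Jarid2, Mtf2 and Eed, a cofactor, a Polycomb-like protein and the subunit that reads the mark, lay at 0.04 ± 0.12, 0.15 ± 0.12 and 0.10 ± 0.11. In the PRC1 list, the complex that ubiquitinates histone H2A, 2 of 21 members were positive and 2 negative (9.52% each). Over all genes tested 10.2% were called in each direction, so these counts do not set the list apart. Pcgf5, a subunit of a variant complex, was negative at -1.08 ± 0.10. Among the enzymes that write or erase the lysine 36 mark 1 of 15 was positive and 1 negative (6.67% each, below the share over all genes), namely Kdm4a at 0.44 ± 0.13 and Nsd2 at -0.59 ± 0.10. The Kdm4a call was lost with averaged probes (0.26), without the 3 rated arrays (0.35), on the 3 complete slides (0.39) and on leaving out any 1 of 8 arrays (sh4 retinoic acid replicates 1 and 4, shCTR retinoic acid 4, sh4 untreated 2 and 4, shCTR untreated 2, 3 and 4), and the Nsd2 call with a normexp correction (-0.36).

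The commonest pattern with 1 group apart, low untreated shCTR, included Cdx2, Thbs1 and Krt18; the leading genes of each such pattern were picked after their values were seen. Krt18 and Krt8 are the partner keratins of simple epithelia. On untreated arrays Krt18 read 1.67, 1.31, 1.99 and 1.87 with shCTR but 5.61, 5.48, 5.63 and 5.78 with sh4. Under retinoic acid the gene read 7.57, 7.43, 7.65 and 7.63 in shCTR and 7.57, 7.58 and 7.38 in sh4. The untreated hairpins were thus fully separated and the treated hairpins overlapped. The hairpin effect was 3.91 ± 0.13 before and -0.06 ± 0.14 after retinoic acid, an interaction of -3.98 ± 0.19 (limma, adjusted p = 1.7e-08). Krt8 had the same pattern, with group means of 0.98, 4.67, 6.89 and 6.89 in the same order and an interaction of -3.69 ± 0.15. Both genes therefore rose in both hairpins, by 5.86 and 1.89 for Krt18 and by 5.91 and 2.22 for Krt8 in shCTR and sh4.

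The 250 bases upstream of the annotated starts of these partner genes are shown because the genes moved together; they are taken from RefSeq on GRCm38.p6, 5' to 3' on the gene's strand, with each CG dinucleotide in capitals. Krt8 lies on the minus strand at chr15:102004343-102004592 and Krt18 on the plus strand at chr15:102027966-102028215.
Krt8: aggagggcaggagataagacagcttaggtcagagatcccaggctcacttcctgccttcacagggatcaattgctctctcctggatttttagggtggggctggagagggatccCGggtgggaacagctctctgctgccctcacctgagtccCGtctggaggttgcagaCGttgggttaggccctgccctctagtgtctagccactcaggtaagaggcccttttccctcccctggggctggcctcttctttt
Krt18: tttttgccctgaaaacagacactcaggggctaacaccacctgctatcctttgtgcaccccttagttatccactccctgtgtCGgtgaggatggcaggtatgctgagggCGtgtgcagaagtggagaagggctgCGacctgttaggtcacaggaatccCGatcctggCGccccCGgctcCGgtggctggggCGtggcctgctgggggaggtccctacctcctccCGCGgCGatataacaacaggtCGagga
CG, read on either strand and with no overlap between matches, occurs 3 times in the Krt8 window and 12 times in the Krt18 window. Over 27025 RefSeq promoters of the same length the median was 6, the quartiles were 2 and 16, 38.2% held at least 10 and 8.26% held none.

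The list of simple epithelial keratins and junction genes followed the keratins. In untreated cells 23 of 27 measured members were higher in sh4 and 2 lower, and after retinoic acid 16 were higher. For the interaction 13 were negative and 4 positive, with a median of -0.78. All 13 negative members had their hairpin effect in untreated cells alone (8) or the same way and larger there (5), and in 10 members untreated shCTR was the low group. Cldn7, a tight junction claudin, had hairpin effects of 3.12 ± 0.11 and 0.00 ± 0.12 and an interaction of -3.12 ± 0.16. Prss8, a membrane protease that activates epithelial sodium channels, went from 2.56 ± 0.13 to 0.71 ± 0.14. Esrp1, the epithelial splicing regulator, went from 2.68 ± 0.10 to 0.12 ± 0.10. Other members had a called hairpin effect in both states. Grhl2, an epithelial transcription factor, was higher in sh4 by 2.25 ± 0.10 and 1.92 ± 0.11, and its interaction of -0.33 ± 0.15 was not called (limma, adjusted p = 0.16). Epcam stood at 1.26 ± 0.08 and 0.97 ± 0.08, also without a called interaction, though it was called without shCTR untreated replicate 4 (-0.34). Cldn8 ran the other way: it was well above background on the 3 sh4 retinoic acid arrays and on no array of the other groups, so no size is given; with a normexp correction its interaction was not called (limma, adjusted p = 0.10).

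Trophoblast genes shared part of this pattern. Of 23 measured trophectoderm and placenta genes, which include both keratins, 13 were negative and 4 positive, with a median of -0.71. Cdx2, the transcription factor that specifies trophectoderm and later the posterior axis, read -4.92, -4.38, -4.40 and -4.59 in untreated shCTR against -0.56, -0.60, -0.43 and -0.06 in untreated sh4. In retinoic acid-treated cells it read -2.04, -2.0, -1.91 and -1.77 in shCTR and -2.36, -2.67 and -2.40 in sh4. With retinoic acid Cdx2 thus rose by 2.64 in shCTR and fell by 2.07 in sh4, so that the order of the hairpins was turned. The interaction was -4.71 ± 0.21 (limma, adjusted p = 1.0e-08). Hand1, a helix-loop-helix factor of trophoblast giant cells and heart, had hairpin effects of 3.03 ± 0.11 and -0.45 ± 0.12. Plac1, a placental surface protein, went from 2.99 ± 0.08 to -0.72 ± 0.09. Gata3, another trophectoderm factor, kept the direction, from 1.94 ± 0.10 to 0.47 ± 0.11. With a normexp correction the interactions of Hand1, Plac1 and Gata3 were -2.06, -1.99 and -0.91, against -3.48, -3.71 and -1.47, and still called. Bmp4, a signal that can direct stem cells to trophoblast, was among the positive members at 1.19 ± 0.20.

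Targets of the Hippo pathway cofactor YAP and its partner TEAD differed between hairpins mainly in untreated cells. In untreated cells 18 of 22 were higher in sh4 and 1 lower, whereas after retinoic acid 4 were higher and 4 lower. For the interaction 14 were negative and 1 positive, with a median of -0.64, and 10 of the 14 had a hairpin effect called in untreated cells alone. Ccn1, a secreted matricellular protein, went from 2.13 ± 0.13 to -0.02 ± 0.14. Amotl2, a feedback inhibitor of YAP, went from 1.17 ± 0.07 to -0.13 ± 0.07. Ptpn14, a phosphatase that holds YAP in the cytoplasm, went from 1.59 ± 0.09 to -0.18 ± 0.10. Ccn2, the connective tissue growth factor, was turned from 1.20 ± 0.11 to -0.54 ± 0.12. Thbs1, a matrix glycoprotein on the same list and among the 10 most negative genes, read -6.01, -5.72, -5.70 and -5.76 in untreated shCTR and between -1.54 and -1.25 in untreated sh4. After retinoic acid Thbs1 ranged from -0.88 to -0.35 in shCTR and from -0.47 to -0.23 in sh4, where the hairpins overlapped, and its interaction was -4.05 ± 0.17, or -2.45 with a normexp correction and -2.55 in the deposited values.

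Interferon-stimulated genes were split. Of 36 measured, 12 were negative and 5 positive, and the median was -0.27, or -0.13 with unmeasured levels set to the lowest reliable signal. The negative members included Oasl2 (-3.76), whose call was lost with a normexp correction (-0.28), and Gbp2, a guanylate-binding protein. Gbp2 had hairpin effects of 4.69 ± 0.13 and 1.04 ± 0.14. Psmb8, an immunoproteasome subunit, had 3.96 ± 0.13 and 1.16 ± 0.14, and Isg15, a ubiquitin-like modifier, 2.54 ± 0.16 and 0.53 ± 0.17. Oas2, an antiviral nucleotide synthetase, had the reverse, -1.45 ± 0.08 and -0.50 ± 0.09, and a positive interaction of 0.96 ± 0.12. Cxcl10, a chemokine induced by interferon, rose with retinoic acid by 8.79 in shCTR and 4.90 in sh4, and its hairpin effect turned from 2.98 ± 0.12 to -0.91 ± 0.13. Sizes here were smaller with a normexp correction, at -2.08 for Gbp2, -1.09 for Psmb8 and -2.01 for Cxcl10 against -3.65, -2.80 and -3.89. Gbp2 and Gbp2b are near copies in a gene cluster, and their probes may share signal.

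Imprinted genes, expressed from 1 parental allele, had 12 negative and 4 positive members of 33, with a median of -0.20. All 12 negative members were higher in untreated sh4, 8 of them with an effect in untreated cells alone. Igf2, the fetal growth factor, went from 1.71 ± 0.17 to 0.02 ± 0.18, and H19, the noncoding RNA beside it, from 1.30 ± 0.09 to -0.09 ± 0.10. Peg3, a zinc finger protein, kept a remainder of 0.26 ± 0.08 from 1.70 ± 0.08. With a normexp background correction 4 negative and 2 positive members were called, and the calls of Igf2 (-0.36) and Peg3 (-0.36) were lost; that of H19 was lost when probes were averaged (-0.63).

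**Figure D3:**
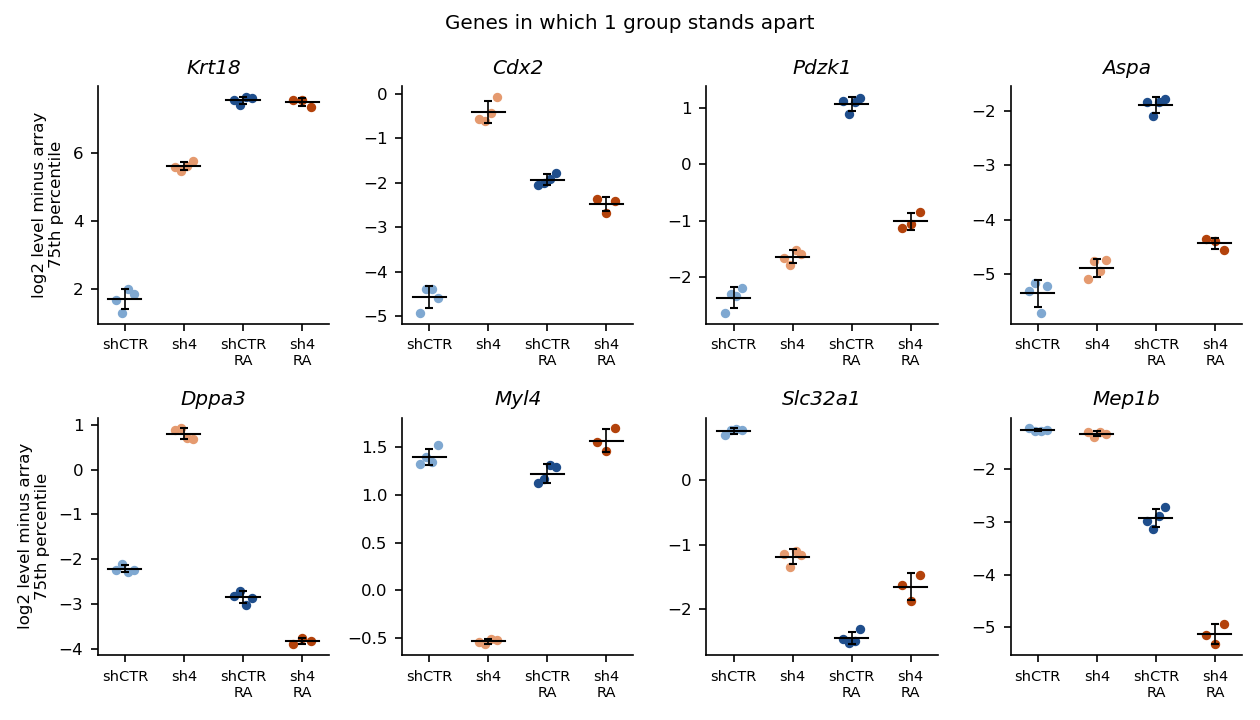
Points are single arrays of 8 genes in the 4 groups (x axis), as log2 level minus the array's 75th percentile (y axis, own range in each panel); lines and bars are the group mean and SD (n = 4, and 3 for sh4 after retinoic acid). Untreated shCTR is the low group in Krt18 and Cdx2, shCTR after retinoic acid the high group in Pdzk1 and Aspa, untreated sh4 the high group in Dppa3 and the low group in Myl4, untreated shCTR the high group in Slc32a1, and sh4 after retinoic acid the low group in Mep1b.

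Another common pattern was a response to retinoic acid that was made in shCTR and not, or less, in sh4, and it held most of the endoderm genes. Visceral endoderm is the absorptive and secretory epithelium around the early embryo. Of 32 measured genes for its secreted, carrier and uptake proteins, 24 were negative and 1 positive, with a median interaction of -1.70, the lowest of the 29 lists. The median hairpin effect was -0.20 in untreated cells and -1.68 after retinoic acid, where 26 members were lower in sh4 and 1 higher. Of the 24, 13 had a hairpin effect called after retinoic acid alone and 6 the same way and larger there. Within slides the medians were -1.46, -1.64 and -1.78. In these bulk samples fewer cells of a type and less RNA per cell cannot be told apart.

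Ttr, which carries thyroid hormone and retinol-binding protein, was well above background on no untreated array. After retinoic acid it read -0.34, -0.45, -0.14 and -0.06 in shCTR and -3.69, -3.80 and -3.48 in sh4, a hairpin effect of -3.41 ± 0.15 with no overlap. Pdzk1, a scaffold for brush border transporters, read -2.63, -2.29, -2.33 and -2.20 in untreated shCTR against -1.66, -1.78, -1.51 and -1.59 in untreated sh4. Treated arrays read 1.11, 0.89, 1.11 and 1.17 in shCTR but -1.13, -1.06 and -0.84 in sh4. Retinoic acid raised Pdzk1 by 3.43 in shCTR and by 0.63 in sh4, and the interaction was -2.80 ± 0.15 (limma, adjusted p = 5.6e-08). Pdzk1ip1, which binds Pdzk1, had the same shape, with group means of -3.29, -2.17, 0.96 and -1.21 and an interaction of -3.28 ± 0.13. It led the 125 genes in which shCTR after retinoic acid was the high group, followed by Cited1, a transcriptional cofactor (-3.10 ± 0.11), Aspa, which cleaves N-acetylaspartate (-3.02 ± 0.18), and Car2, a carbonic anhydrase (-2.98 ± 0.12).

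The upstream windows of Pdzk1, at chr3:96829815-96830064 on the plus strand, and of Pdzk1ip1, at chr4:115088458-115088707 on the plus strand, are given in the same way for these binding partners, which shared the pattern of high shCTR after retinoic acid.
Pdzk1: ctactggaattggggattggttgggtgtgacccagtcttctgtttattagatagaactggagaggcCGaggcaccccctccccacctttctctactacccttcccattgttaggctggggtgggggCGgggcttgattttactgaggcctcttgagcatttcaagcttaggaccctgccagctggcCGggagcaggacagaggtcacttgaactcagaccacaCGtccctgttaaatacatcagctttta
Pdzk1ip1: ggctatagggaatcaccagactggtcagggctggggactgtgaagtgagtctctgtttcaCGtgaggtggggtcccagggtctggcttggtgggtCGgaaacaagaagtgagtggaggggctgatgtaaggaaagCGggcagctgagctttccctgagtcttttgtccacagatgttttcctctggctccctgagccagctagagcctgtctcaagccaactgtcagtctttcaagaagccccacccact
They hold 4 and 3 CG dinucleotides, below the median of 6 over all RefSeq promoters. RefSeq lists 2 starts for Pdzk1, of which 1 is shown.

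The endocytic receptors of this tissue moved with the carriers. Cubn, the receptor cubilin, rose with retinoic acid by 7.32 in shCTR and 5.62 in sh4, and its hairpin effect went from -1.29 ± 0.12 to -2.99 ± 0.13. Amn, its membrane anchor, went from -1.07 ± 0.10 to -2.78 ± 0.11. Lrp2, the receptor megalin, went from 1.05 ± 0.13 to -1.26 ± 0.14, an interaction of -2.32 ± 0.19. Dab2, their endocytic adaptor, lay at 0.02 ± 0.10 before and -2.39 ± 0.11 after. Ihh, the hedgehog ligand of visceral endoderm, went from -0.43 ± 0.12 to -2.85 ± 0.13, and Mttp, which loads lipid on apolipoprotein B, from -0.14 ± 0.07 to -2.07 ± 0.08. Apoc2, an activator of lipoprotein lipase, was the 1 positive member at 1.02 ± 0.21; retinoic acid lowered it in both hairpins. Afp, Fgb, Nepn and Fabp1 were not measured in either untreated group, so their interactions of -1.84, -2.50, -3.33 and -2.45 rest on unmeasured untreated levels; Fabp1 was also not measured in treated sh4. The Fabp1 call was lost with a normexp correction (-0.58), and the Fgb call without the 3 rated arrays (-2.25) and on the 3 complete slides (-2.23).

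Basement membrane and parietal endoderm genes repeated the direction. Of 24 members, which include the keratins Krt8 and Krt19, 17 were negative and 4 positive, with a median of -1.07. Lamb1 and Lamc1, chains of laminin, were higher in untreated sh4 (0.71 ± 0.07 and 0.26 ± 0.08) and lower after retinoic acid (-1.43 ± 0.08 and -1.51 ± 0.09). Lamb1 read between 3.05 and 3.28 in untreated shCTR, between 3.77 and 3.99 in untreated sh4, between 6.28 and 6.47 in treated shCTR and between 4.86 and 5.0 in treated sh4. Col4a1 and Col4a2, the chains of type IV collagen, had interactions of -1.75 ± 0.13 and -1.92 ± 0.19. All 4 positive members had hairpin effects that were negative in both states and larger in untreated cells, as in Pdgfra, the receptor of primitive endoderm (-2.43 ± 0.05 and -1.58 ± 0.06). The direction for Pdgfra turned with a normexp correction and in the authors' deposited values.

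The endoderm transcription factors did not move together. Of 15, 8 were negative and 3 positive, with a median of -0.46, and 12 were lower in sh4 after retinoic acid while none was higher. Hnf4a, the nuclear receptor of visceral endoderm, read between -1.44 and -1.19 in untreated shCTR and between -3.20 and -3.03 in untreated sh4. Treated arrays ranged from -0.73 to -0.34 in shCTR and from -4.13 to -3.80 in sh4. It rose by 0.83 in shCTR and fell by 0.83 in sh4, an interaction of -1.66 ± 0.15 (limma, adjusted p = 4.0e-06). Gata4, a zinc finger factor of endoderm and heart, went from -0.78 ± 0.08 to -2.47 ± 0.08, and Foxq1 from -0.94 ± 0.11 to -2.92 ± 0.12. Gata6 and Sox17, which act earlier in primitive endoderm, had the reverse: their hairpin effects of -1.91 ± 0.08 and -1.88 ± 0.11 shrank to -1.32 ± 0.08 and -1.27 ± 0.12, giving positive interactions of 0.59 ± 0.11 and 0.61 ± 0.16. Neither call held with a normexp correction, at 0.22 for Gata6 and 0.01 for Sox17, or in the authors' deposited values, at 0.19 and -0.08. The Sox17 call was also lost without the 3 rated arrays (0.52) and without sh4 retinoic acid replicate 1 (0.56).

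**Figure D4:**
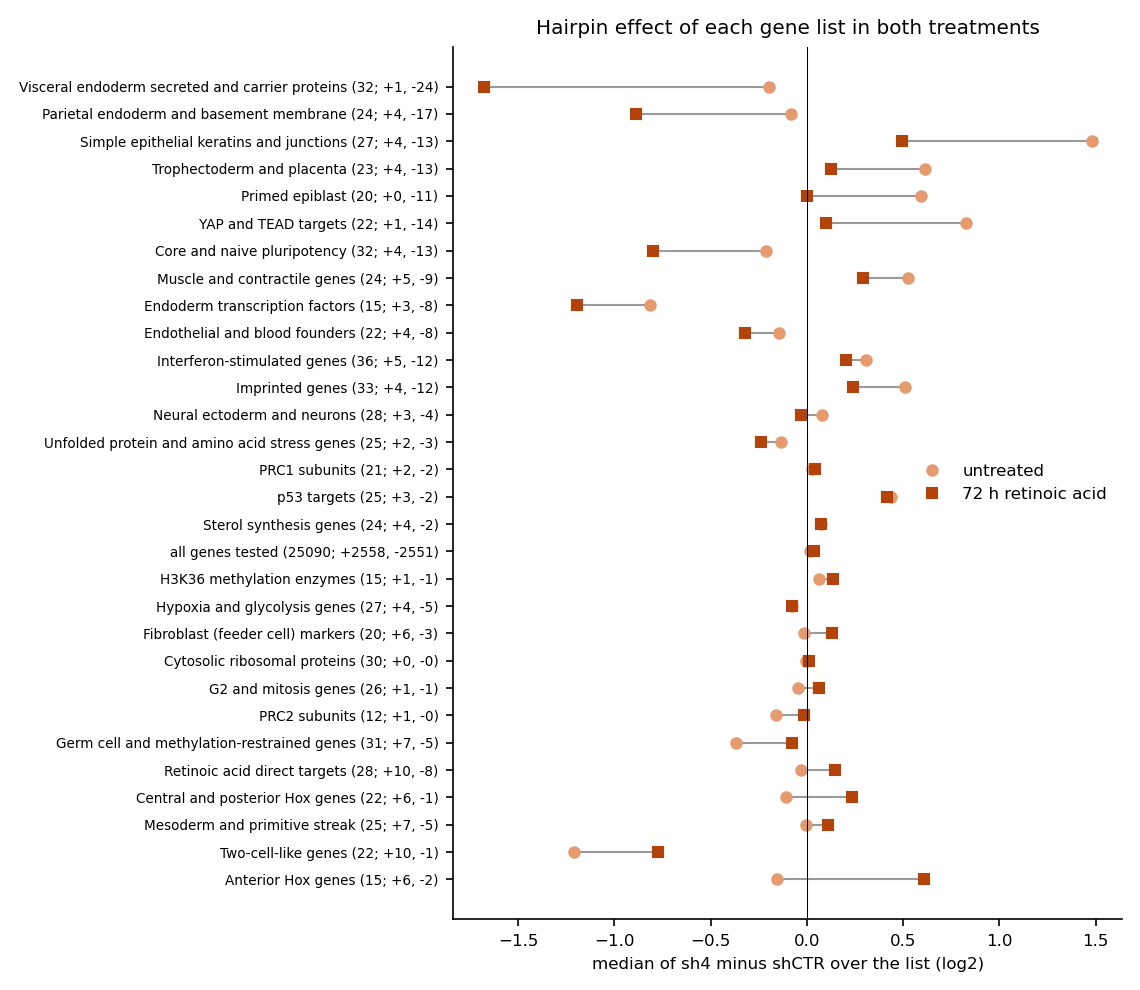
For each gene list (y axis, with the number of measured members and of members called positive and negative for the interaction) the circle marks the median hairpin effect (sh4 minus shCTR, log2, x axis) in untreated cells and the square the median after 72 h of retinoic acid; lists are ordered by the median interaction. Visceral endoderm genes go from -0.20 to -1.68, simple epithelial genes from 1.48 to 0.50, and the ribosomal list stays near 0 in both.

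Where untreated sh4 was the group apart, the high side was led by Enpp2, the lysophospholipase autotaxin, and Dppa3, a maternal factor that protects DNA methylation. Dppa3 read -2.23, -2.10, -2.29 and -2.24 in untreated shCTR against 0.89, 0.92, 0.71 and 0.68 in untreated sh4. At 72 h of retinoic acid the level was -2.83, -2.70, -3.01 and -2.86 in shCTR but -3.90, -3.76 and -3.83 in sh4. With retinoic acid Dppa3 fell by 0.63 in shCTR and fell by 4.63 in sh4, and the interaction was -3.99 ± 0.12 (limma, adjusted p = 6.3e-10). Enpp2 had an interaction of -5.33 ± 0.17, from a hairpin effect of 3.74 ± 0.12 before and -1.60 ± 0.13 after. Primed epiblast genes, which mark the later, implantation-stage pluripotent state, were also higher in untreated sh4. Of 20 measured, 11 were negative and none positive for the interaction, with a median of -0.65, and in 3 of them untreated sh4 was the high group and in 3 untreated shCTR the low group. Dnmt3b, a DNA methyltransferase, went from 1.29 ± 0.06 to -0.43 ± 0.07. Pou3f1, an epiblast and neural factor, went from 2.00 ± 0.10 to 0.04 ± 0.10, and Fgf5, a growth factor of that stage, from 2.61 ± 0.08 to 0.74 ± 0.09. Otx2, a homeodomain factor of epiblast and forebrain, was turned from 1.17 ± 0.09 to -0.86 ± 0.10.

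The low side of untreated sh4 was led by Cdh22, Myl4, Stra8 and Tmem132c. Myl4, an embryonic myosin light chain, read 1.32 to 1.52 in untreated shCTR and -0.56 to -0.51 in untreated sh4, but 1.12 to 1.32 in treated shCTR and 1.46 to 1.70 in treated sh4. Its interaction was 2.28 ± 0.10 (limma, adjusted p = 1.1e-08). Stra8, which retinoic acid induces for entry into meiosis, had hairpin effects of -2.11 ± 0.31 and 0.05 ± 0.33; retinoic acid raised it by 3.09 in sh4, to the level of treated shCTR. Dazl, a germ cell RNA-binding protein, went from -1.09 ± 0.22 to 0.17 ± 0.23, a call that was lost without the 3 rated arrays (1.29, limma adjusted p = 0.066).

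Core and naive pluripotency genes differed mainly after retinoic acid. Of 32 measured, 13 were negative and 4 positive, with a median of -0.56, and 7 of the 13 had a hairpin effect called after retinoic acid alone. Within slides the medians were -0.83, -0.71 and -0.10, the last from the slide that held sh4 retinoic acid replicate 4. Without that array 21 were negative and 3 positive, and the median was -0.80. Pou5f1, the core pluripotency factor Oct4, read 3.96, 4.79, 4.74 and 4.55 in untreated shCTR against 4.07, 4.42, 4.45 and 4.43 in untreated sh4, which overlapped. After retinoic acid it read 1.51, 1.29, 1.46 and 1.25 in shCTR and -0.57, -0.79 and 0.09 in sh4, which did not. The interaction was -1.63 ± 0.30 (limma, adjusted p = 0.0015), and -1.89 without replicate 4. Nanog read 0.20, 0.12, 0.19 and 0.52 in treated shCTR against -1.36, -1.32 and 0.05 in treated sh4. Its interaction of -0.66 ± 0.35 was not called (limma, adjusted p = 0.25), but without replicate 4 it was -1.12 (limma, adjusted p = 1.7e-04). Tdh, the threonine dehydrogenase of mouse stem cells, read -2.09, -1.97 and 0.28 in treated sh4 against 1.06 to 1.35 in treated shCTR, an interaction of -2.23 ± 0.56, and -3.00 without replicate 4; without the 3 rated arrays it was -1.80 and not called.

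Other pluripotency genes did not follow the same line. Sox2, the partner of Pou5f1 and a neural progenitor factor, with retinoic acid fell by 5.55 in shCTR and fell by 4.54 in sh4, so that its interaction was positive at 1.01 ± 0.16. Dnmt3l, a cofactor of DNA methylation, had hairpin effects of 0.21 ± 0.09 and -0.88 ± 0.09. Lefty1, a Nodal antagonist, was turned from 0.68 ± 0.09 to -1.03 ± 0.09, and Gdf3, a related ligand, went from 0.00 ± 0.14 to -1.17 ± 0.15. Lin28a, an RNA-binding protein of pluripotent cells, was higher in untreated sh4 alone (0.79 ± 0.13 and -0.28 ± 0.14). Tbx3, a naive-state factor, was the case of a shrinking deficit, from -1.15 ± 0.07 to -0.37 ± 0.07. Without sh4 retinoic acid replicate 4 the interactions were 0.87 for Sox2, -1.16 for Dnmt3l, -1.77 for Lefty1, -1.41 for Gdf3, -1.09 for Lin28a and 0.76 for Tbx3, all called, against 1.01, -1.09, -1.71, -1.17, -1.08 and 0.78 with it.

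Hox genes leaned to the positive side. Of 15 anterior Hox genes 6 were positive and 2 negative, with a median of 1.12, and of 22 central and posterior genes 6 were positive and 1 negative, with a median of 0.25. Hoxb2, which patterns the hindbrain, read -5.60, -5.50, -5.54 and -5.52 in untreated shCTR against -6.83, -6.23, -6.92 and -6.56 in untreated sh4. The treated level was 2.65, 2.54, 2.60 and 2.62 in shCTR but 3.22, 3.19 and 3.16 in sh4, so that sh4 passed from below to above shCTR without overlap. The interaction was 1.68 ± 0.17 (limma, adjusted p = 1.2e-05), or 0.94 with a normexp correction and 0.84 in the deposited values. Hoxc4 had the same pattern (-1.01 ± 0.06 and 0.59 ± 0.07), as did Hoxb7 (-0.68 ± 0.07 and 0.46 ± 0.07), Hoxa7 (-0.67 ± 0.08 and 0.46 ± 0.08) and Hoxb9 (-0.51 ± 0.11 and 0.40 ± 0.12). Hoxd4 and Hoxd1 had no called effect before and were higher in sh4 after retinoic acid by 1.20 ± 0.21 and 0.93 ± 0.17; the Hoxd4 interaction was not called without the 3 rated arrays (1.12). Hoxa2 was a negative anterior member, at -0.52 ± 0.12. With a normexp correction, and equally in the authors' deposited values, 12 of 15 anterior genes were positive and none negative, and 7 central and posterior genes were positive and none negative. Hoxa2 was well above background on no untreated array, and its interaction was 0.85 with the normexp correction and 0.68 in the deposited values, called in both.

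Genes that retinoic acid receptors control directly had interactions of both signs. Of 28 measured, 10 were positive and 8 negative, with a median of 0.22, or 0.12 with unmeasured levels set to the lowest reliable signal. Cyp26a1, which degrades retinoic acid, read between -5.03 and -4.49 in untreated shCTR, between -3.80 and -3.32 in untreated sh4 and between 4.47 and 4.74 on all 7 treated arrays. Its interaction of -1.22 ± 0.17 thus came from untreated cells alone, and with a normexp correction it was -0.55 and not called (limma, adjusted p = 0.05). Rarb, a retinoic acid receptor, had the mirror pattern, with hairpin effects of -0.77 ± 0.09 and -0.05 ± 0.09 and an interaction of 0.73 ± 0.13. The Rarb call was lost with a normexp correction (0.48) and with averaged probes (0.43). Crabp1, a cytoplasmic carrier of retinoic acid, went from -0.95 ± 0.10 to -0.03 ± 0.11, and Dhrs3, which reduces retinal, from -0.26 ± 0.08 to 0.38 ± 0.08. Meis2, a Hox cofactor, had hairpin effects of 2.33 ± 0.06 and 0.51 ± 0.07.

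Genes of the 2-cell-like state, a rare state of stem cell cultures that expresses transcripts of the cleavage-stage embryo, had a positive interaction of a single kind. Of 22 measured, 18 were lower in sh4 before and 17 after retinoic acid, and none was higher in either state. Of these, 10 had a positive interaction and 1, Pramel7, a negative interaction (-1.11 ± 0.15), and all 10 kept a negative hairpin effect that was smaller after retinoic acid. Zscan4c, a marker of that state, read 4.17, 3.76, 4.16 and 4.25 in untreated shCTR against 2.96, 2.87, 2.85 and 3.03 in untreated sh4. Under retinoic acid the gene read 6.21, 6.09, 6.02 and 5.94 in shCTR and 5.61, 5.73 and 5.56 in sh4. The hairpins were separated in both states, by -1.16 ± 0.10 and -0.43 ± 0.11, and the interaction was 0.73 ± 0.15 (limma, adjusted p = 0.0033). Many of these genes belong to families of near copies whose probes may share signal. With a normexp correction 6 were positive and 1 negative, in the authors' deposited values 6 and 3, and Tdpoz4 turned sign under both and Tdpoz3 in the deposited values. Tdpoz3, at 1.22 in the main fit, also lost its call with the normexp correction (0.05). The Tdpoz4 call was also lost without the 3 rated arrays (0.45) and without sh4 retinoic acid replicate 1 (0.57) or 3 (0.59).

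Beyond the lists, the 10 most positive measured genes ranged from 2.19 to 3.42 and the 10 most negative from -5.38 to -3.89, and the rule that picked them required the same sign in all 3 slides. Adgrd1, an adhesion G protein-coupled receptor, was the most positive, read between -2.64 and -2.34 in untreated shCTR, between -4.68 and -4.24 in untreated sh4, between -8.20 and -7.21 in treated shCTR and between -6.23 and -5.85 in treated sh4. The treated shCTR signal was near the floor of these arrays, which lay between -8.30 and -7.45, and its interaction of 3.42 was 1.71 with a normexp correction. Slc32a1, the vesicular transporter of inhibitory transmitters, led the genes in which untreated shCTR was the high group, at 0.68 to 0.78 against -1.34 to -1.09 in untreated sh4; after retinoic acid it stood at -2.51 to -2.30 in shCTR and at -1.87 to -1.46 in sh4. Its interaction was 2.72 ± 0.13 (limma, adjusted p = 1.8e-08). Tac2, a tachykinin precursor, Grik4, a kainate receptor subunit, and Lims2, a focal adhesion protein, had the same group apart, with interactions of 2.59 ± 0.16, 2.33 ± 0.14 and 2.19 ± 0.14. The remaining positive genes were Cdh22, a cadherin (2.82 ± 0.27), Inhbb, an activin subunit (2.65 ± 0.42), Foxd1, a forkhead factor (2.24 ± 0.13), and Igsf21, a synaptic adhesion protein (2.19 ± 0.21).

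Il33, an interleukin held in the nucleus, was the most negative measured gene. It read -6.72, -6.21, -6.30 and -6.83 in untreated shCTR, -3.97, -3.72, -3.94 and -3.94 in untreated sh4, 1.23, 1.19, 1.12 and 1.28 in treated shCTR and -1.72, -1.80 and -1.14 in treated sh4. Both hairpins rose with retinoic acid, by 7.72 in shCTR and 2.34 in sh4, and their order was turned, giving an interaction of -5.38 ± 0.23 (limma, adjusted p = 9.6e-09), or -3.43 with a normexp correction. Cfc1, the Nodal coreceptor Cryptic, had 1.48 ± 0.14 and -2.75 ± 0.15, and Dok2, an adaptor of tyrosine kinase signalling, 1.86 ± 0.11 and -2.13 ± 0.12. These changes of sign were each larger than the spread between arrays in both states.

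**Figure D5:**
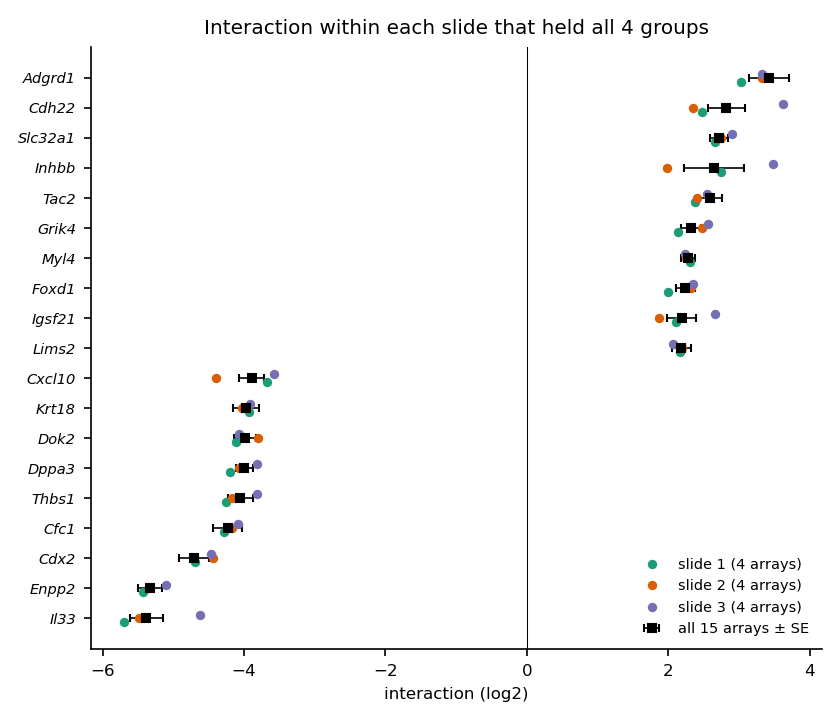
For the 10 most positive and 9 of the 10 most negative measured genes (y axis) black squares show the interaction over all 15 arrays (log2, x axis) with its standard error, and coloured points the interaction within each of the 3 slides that held 1 array of every group. The rule for these genes required 1 sign over the slides; among the positive genes Inhbb and Cdh22 have the widest spread.

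Retinoic acid-treated sh4 was rarely the group apart. On its low side Mycn, a Myc-family factor, read 1.33 to 1.56 in untreated shCTR, 2.25 to 2.85 in untreated sh4 and 1.18 to 1.38 in treated shCTR, but -0.38, -0.31 and -0.11 in treated sh4. Its interaction was -2.77 ± 0.18. Mep1b, a metalloprotease subunit of brush borders, had hairpin effects of -0.07 ± 0.09 and -2.20 ± 0.10 and an interaction of -2.13 ± 0.14. F2, prothrombin, had -0.85 ± 0.07 and -2.74 ± 0.08. On the high side Wnt6, a Wnt ligand, read -0.21 to 0.02 in treated shCTR and 2.10, 1.49 and 1.61 in treated sh4, with an interaction of 2.11 ± 0.19. The rare reverse, low shCTR after retinoic acid, held Trps1, a GATA-type repressor (1.18 ± 0.10).

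For 373 called genes at least 1 group was not measured, and for 140 of these the interaction has a lower bound because every unmeasured group entered against its direction. With unmeasured levels raised to the lowest reliable signal of their array, Slc23a1, a vitamin C transporter, had a negative interaction of at least 43.5-fold, with treated sh4 unmeasured. Clic5, a chloride channel family member, had at least 40.4-fold and Gbp3 at least 21.6-fold, both with untreated shCTR unmeasured. Olig3, a neural helix-loop-helix factor, had at least 22.8-fold. The positive bounds were smaller: Kng2, a kininogen, at least 5.2-fold, Baalc 4.9-fold, Rufy4 3.7-fold and Bpi, which binds bacterial endotoxin, 3.0-fold. These bounds hold for the processed signal only. With a normexp correction the log2 interactions were -2.41 for Slc23a1, -2.38 for Clic5, -1.40 for Gbp3 and -1.65 for Olig3, all below the size of the bounds, and 0.66 for Kng2, 0.81 for Baalc, 0.44 for Rufy4 and 0.52 for Bpi, of which only Baalc kept its call. In the authors' deposited values Kng2, Baalc, Rufy4 and Bpi were at 0.46, 0.67, 0.31 and 0.37. Another Bpi probe, well above background on all arrays, had an interaction of 0.42 that was not called (limma, adjusted p = 0.67).

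Muscle and contractile genes had 9 negative and 5 positive members of 24, with a median of -0.46, or -0.37 with unmeasured levels at the floor. Acta2, smooth muscle actin, rose with retinoic acid by 8.21 in shCTR and 5.77 in sh4, with hairpin effects of 2.96 ± 0.15 and 0.52 ± 0.16. Tagln and Myl9, smooth muscle genes, had interactions of -1.57 ± 0.41 and -1.44 ± 0.29. Actc1, cardiac actin, was not measured in either untreated group, and its fitted interaction of -1.95 turned to 0.46 with a normexp correction and to 0.27 in the authors' deposited values. Fibroblasts, which serve as feeder cells for stem cell cultures, express such genes too. Of 20 measured fibroblast markers 6 were positive and 3 negative, with a median of 0.03, or 0.23 at the floor; 15 were measured in untreated shCTR, 17 in untreated sh4 and all 20 in both treated groups. Their summed linear level relative to the 75th percentile ran from 46.1 to 50.1 in untreated shCTR and 46.2 to 51.4 in untreated sh4. It ran from 41.8 to 46.7 in treated shCTR and 45.1 to 46.1 in treated sh4. A linear sum follows the brightest markers. By contrast, the median log2 response of the markers to retinoic acid was a rise of 2.04 in shCTR and 2.44 in sh4. Dcn, Lum and Col3a1, the 3 negative markers, were well above background on no untreated shCTR array. With a normexp correction and in the deposited values Dcn and Col3a1 turned positive, and the Lum call was lost under both and without any single array other than sh4 untreated replicate 1 and shCTR untreated replicate 2. The part of such cells in the muscle and matrix results was not tested.

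Cytosolic ribosomal proteins had no called interaction among 30 members, with a median of 0.04, and none had a called hairpin effect in either state.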

How the data were processed

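Total RNA of 15 samples was labelled with Cy3, per the labels, and hybridised to 1-colour Agilent arrays. The authors deposited the scanner output of each array, whose processed signal is an intensity that Feature Extraction 10.7.3.1 had background-subtracted and detrended, per the file headers, which name the build mm9. They also deposited a value table on a log2 scale whose processing was not given in the sources used; it correlated with log2 mean signal at 0.99 or more on each array and served as an alternative.

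The log2 processed signal minus the array's 75th percentile was computed for 39429 non-control probes. Control spots and outlier spots were left out, and 75th percentiles lay between 1509 and 1911 intensity units, with 74.4% to 80.0% of 43020 spots well above background on each array and no saturated spot. The number of arrays, not read depth, limits the precision. Probes were kept (31179) if at least 3 arrays of any 1 group read well above background, symbols were updated through RefSeq GRCm38.p6 (26155 probes matched), and for 5097 genes with several kept probes the 1 with the highest mean was used, leaving 25090 genes. limma 3.58.1 (lmFit and eBayes, R 4.3.3) was fitted to 4 group means over 15 arrays, with 11 residual degrees of freedom and Benjamini-Hochberg adjustment over all genes. On simulated data with the spread of these arrays and no measured interaction, 25090 genes were run: 10.4% of 67 genes changed by 0.5 log2 units, 37.3% of 67 changed by 1 and 77.3% of 66 changed by 2 were called, with 2 false calls. Far fewer genes changed in the simulation than in the data, where 20.4% were called, and the adjustment is stricter when few genes change. The simulated shares are therefore not the sensitivity in the data. An absent call still does not show that a small interaction is absent.

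Groups came from the sample titles. Deviations from the group means correlated between -0.53 and 0.58 over 21 same-numbered pairs, and between 0.12 and 0.61 over 21 same-slide pairs. Most same-numbered samples shared a slide, so replicate number and slide could not be fully told apart. The 6 same-numbered pairs on different slides correlated between -0.53 and 0.56. The main fit had no slide term, and the slide was used as a batch only in alternatives. With the slide as a block the hairpin effect was called for 9049 genes in untreated cells and 7053 after retinoic acid.

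Named genes had a RefSeq symbol and were the 10 most positive and 10 most negative genes measured in all groups with 1 sign over 3 slides, the 4 largest bounds in each direction, 3 genes in each direction for each hairpin pattern, members of 29 gene lists and the PRC2 subunits; the leading genes of the patterns with 1 group apart, and the list members named beyond this rule, were chosen after their values were seen. Some genes that the rule picked are not reported here. Of 230 named genes 164 matched a RefSeq promoter. The gene lists and members were chosen with earlier results of these data known. Alternatives were another background correction (normexp, offset 50), quantile normalisation, the deposited values, stricter and no filters, averaged probes, slide and replicate blocks, and leaving out arrays. The slide block on 3 complete slides was chosen after seeing the data.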

Additional observations from a re-analysis of the deposited data

Results flagged for a closer look

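For the named genes, the arrays of each group of 4 were checked for 1 array whose distance from its nearest neighbour took up most of the group's range. Of 690 gene and group pairs 33 were marked; chance alone marks about 5% of such groups. The number given is that distance as a share of the range. In untreated sh4 this share was 0.953 for Cdh22 (replicate 3), 0.858 for Il33 (replicate 2), 0.836 for Bpi (replicate 2), 0.959 for Pga5 (replicate 2) and 0.856 for Hoxb7 (replicate 3). Further shares in untreated sh4 were 0.847 for Eomes (replicate 1), 0.842 for Cldn8 (replicate 1), 0.861 for Esam (replicate 2), 0.831 for Pramel7 (replicate 2) and 0.908 for H19 (replicate 2). It was 0.918 for Phf1 (replicate 2), 0.923 for Epop (replicate 1), 0.922 for Pou5f1 (replicate 1) and 0.838 for Crabp1 (replicate 3). In untreated shCTR this share was 0.842 for Slc32a1 (replicate 1), 0.836 for Slc23a1 (replicate 4), 0.887 for Csf1 (replicate 1), 0.888 for Ccn1 (replicate 1) and 0.997 for Wnt3 (replicate 3). Further shares in untreated shCTR were 0.931 for Elavl3 (replicate 2), 0.852 for Rbbp4 (replicate 3), 0.908 for Car2 (replicate 1), 0.940 for Lefty2 (replicate 2) and 0.959 for Sox7 (replicate 3). It was 0.885 for Foxa2 (replicate 3) and 0.862 for Ccn2 (replicate 1). In shCTR after retinoic acid this share was 0.843 for Stra8 (replicate 1), 0.866 for Tbx20 (replicate 2), 0.868 for Ezh1 (replicate 4), 0.874 for Tmem132c (replicate 1) and 0.830 for Aspa (replicate 2). Further shares in shCTR after retinoic acid were 0.885 for Dazl (replicate 3) and 0.832 for Fabp1 (replicate 4). Pou5f1 in untreated sh4 replicate 1 read 4.07 against 4.42 for the nearest array, Dazl in treated shCTR replicate 3 -1.47 against -0.37, and Stra8 in treated shCTR replicate 1 4.94 against 6.11. No explanation was weighed for these arrays.

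The test of the difference between the hairpin effects of both states is the interaction itself: it was called by limma for 2558 genes in the positive and 2551 in the negative direction. Phf19, with a difference of 0.85 between its hairpin effects, was among them.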

How the results depend on the processing

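The number of arrays and the signal over background limit these results: levels near the floor are compressed, and 373 called genes rest on at least 1 unmeasured group. With a normexp background correction, which moves the median of all genes from 0.01 to 0.12, 3044 genes were called (1689 positive, 1355 negative), 675 at 2-fold or more (223 and 452). The hairpin patterns then held 1402 (untreated alone), 809 (retinoic acid alone), 220 (same way, larger untreated), 102 (same way, larger after retinoic acid) and 340 genes (opposite). The retinoic acid patterns held 396 (sh4 alone), 1186 and 633 (same way, larger in shCTR or sh4), 213 (opposite) and 5 (neither), and 152, 63 and 25 genes had untreated shCTR, untreated sh4 or treated sh4 apart. In the authors' deposited values 677 genes reached 2-fold (207 and 470), 305 had the same direction and a larger untreated effect, and 154, 55 and 25 had those 3 groups apart. With the slide as a block 328 genes had the same direction and a larger effect after retinoic acid, and 1125 opposite directions. Without the 3 arrays rated for evaluation these were 123 and 463. Genes with a retinoic acid response in neither hairpin, 10 in all, numbered 16 with averaged probes, 3 without the rated arrays, 3 on complete slides (chosen after seeing the data) and 3 to 16 on leaving out each array in turn. Outside these, the counts of called interactions and their patterns stayed within 1.5 times their values under the alternatives run; hairpin effects called fell from 7149 to 4631 untreated and from 5308 to 3383 after retinoic acid with the normexp correction. Replicate number mostly coincided with the slide. With the replicate block 5990 genes were called, 4956 of them among the 5109.

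Single genes turned direction, and the cause was not tested. With the normexp correction their interactions were Actc1 0.46, Hba-x 0.0725, Wnt3 0.29, Dcn 0.58, Lum 0.0721, Col3a1 0.78, Rbbp4 -0.0483, Foxa2 -0.0274, Pdgfra -0.44, Tdpoz4 -0.27 and Hoxa2 0.85. In the authors' deposited values they were Actc1 0.27, Wnt3 0.0531, Tdpoz3 -0.0313, Dcn 0.40, Col3a1 0.59, Rbbp4 -0.0040, Jarid2 -0.0099, Sox17 -0.0809, Foxa2 -0.0922, Pdgfra -0.52, Tdpoz4 -0.38 and Hoxa2 0.68. With averaged probes they were Phf1 -0.0174, with the replicate block Rbbp4 -0.0053, and without the rated arrays Rbbp4 -0.0210 and Phf1 -0.0389. On leaving out each array in turn, the ranges were Rbbp4 from -0.0558 to 0.13, Jarid2 from -0.0058 to 0.11 and Epop from -3e-04 to 0.33. Of the genes that turned, Epop, Foxa2, Jarid2, Phf1 and Rbbp4 had no called interaction.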

Other observations

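Germ cell genes that DNA methylation restrains had 7 positive and 5 negative interactions among 31 measured, with a median of 0.18. In untreated cells 15 were lower in sh4 and 4 higher, against 14.1% and 14.4% of all genes tested. The negative members included the homeobox genes Rhox6 and Rhox9, which rose with retinoic acid in both hairpins and had interactions of -1.72 ± 0.13 and -1.42 ± 0.13. Prame, another negative member, was not measured in sh4 in either state, and its call was lost with a normexp correction (-0.33), with quantile normalisation (-1.41), on the 3 complete slides (-1.65) and without any 1 of 8 arrays (shCTR retinoic acid replicates 1, 3 and 4, sh4 untreated 2 and 4, shCTR untreated 1, 3 and 4). Endothelial and blood genes had 8 negative and 4 positive members of 22, with a median of -0.38. Flt1, a VEGF receptor, was turned from 2.10 ± 0.07 to -1.01 ± 0.08, Esam, an endothelial adhesion molecule, from 0.85 ± 0.09 to -2.16 ± 0.09, and Runx1, the factor of blood formation, went from -0.44 ± 0.06 to -1.75 ± 0.06. Mesoderm genes had 7 positive and 5 negative members of 25, with a median of 0.35; Tbx20, a heart factor not measured in untreated shCTR, was negative at -1.86 ± 0.17, but at -0.13 and not called with a normexp correction (limma, adjusted p = 0.74). Neural genes had 3 positive and 4 negative members of 28, with a median of -0.09, where 20.4% of all genes tested were called: Ncam1, a neural adhesion molecule, went from -1.27 ± 0.05 to 0.24 ± 0.06, and Pax6, an eye and forebrain factor, from 1.31 ± 0.13 to 0.59 ± 0.14. The Pax6 interaction was not called with a normexp correction (-0.23), quantile normalisation (-0.70), in the deposited values (-0.36) or without the 3 rated arrays (-0.59).

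Lists of general cell programmes had medians near 0, which calls of both signs can also give. Over all genes tested 10.2% were called positive and 10.2% negative. Of 25 p53 targets 3 were positive and 2 negative, with a median of -0.02. For the hairpin effect 18 were higher in untreated sh4 and 17 in treated sh4, against 14.4% and 10.9% of all genes tested. Cdkn1a, the p21 cell cycle inhibitor, had hairpin effects of -0.07 ± 0.13 and 0.73 ± 0.14. G2 and mitosis genes had 1 positive and 1 negative of 26, with a median of 0.08. Sterol synthesis genes had 4 and 2 of 24 (16.7% and 8.33%, median 0.00), with Fdps, a farnesyl diphosphate synthase, turned from -0.33 ± 0.08 to 0.27 ± 0.09. Hypoxia and glycolysis genes had 4 and 5 of 27 (14.8% and 18.5%, median 0.02). Unfolded protein and amino acid stress genes had 2 and 3 of 25 (8% and 12%, median -0.04).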
